A study of Caenorhabditis elegans with 4 samples.

Results

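The 63 genes described here are those that the authors' deposited table lists between unstressed VZ1 and unstressed N2, taken whole, out of 393 rows in the 4 tables of the series. N2 is the standard wild-type strain of Caenorhabditis elegans. VZ1 is known as a trx-1 mutant strain, and trx-1 encodes a thioredoxin, a small redox protein that is made in a pair of sensory neurons. RNA was taken from whole young adults of both strains on their bacterial food OP50, with no arsenite. The same strains were also exposed to 10 mM sodium arsenite for 5 h, and those libraries enter only where stated. Each of the 4 groups is 1 library, so no difference below has a replicate check, and the authors' test behind each listing compares libraries, not strains.

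Values are FPKM, fragments per kilobase of exon scaled to the number of fragments mapped, as the authors computed them for each pair of libraries. A gene is called listed, higher or lower where the authors' table carries it, and its ratio is the log2 of its VZ1 value divided by its N2 value, without a pseudocount. The authors tested 14419 genes, as worked back from their p- and q-values, and listed 0.437% of them. A gene that is not listed has no value in this comparison, so neither its level nor its ratio is known. Neither trx-1 nor skn-1, the gene of the oxidative stress factor in the series' title, is listed in any of the 4 tables, so the strain labels could not be checked against the level of trx-1. Positions are given as deposited, in build ce10, and 62 of the 63 rows match an annotated protein-coding gene. How deeply the libraries were sequenced is unknown.

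The worm's cuticle is a coat of crosslinked collagens that the epidermis secretes and renews at each molt. Yolk is made by the adult intestine as vitellogenins, large lipoproteins that oocytes take up through the receptor RME-2. Oocytes also store maternal RNA-binding proteins and the proteoglycans from which the eggshell is built. Fat in the worm is stored mainly in the intestine, where lipases release fatty acids and binding proteins carry them.

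Without stress, 60 of the 63 genes stood lower in VZ1 and 3 stood higher, which is 0.416% and 0.0208% of the genes tested. Numbered collagen genes made up 24 of the 60 and vitellogenin genes 4. Another 22 carry only a sequence name in the table, and the remaining 10 are 2 oocyte and eggshell genes, 2 small heat shock protein genes, 5 other named genes and an unnamed locus. The 3 genes higher in VZ1 are 2 lipase-related genes and a fatty acid-binding protein gene. The median log2 ratio was -3.11 over the 58 lower genes with a value above 0 in VZ1, or 8.62-fold, and 3.42 over the 3 higher genes. In N2, 37 of the 63 genes reached 100 FPKM and 5 reached 1000 FPKM, whereas in VZ1 9 reached 100 FPKM and none 1000 FPKM.

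**Figure D1:**
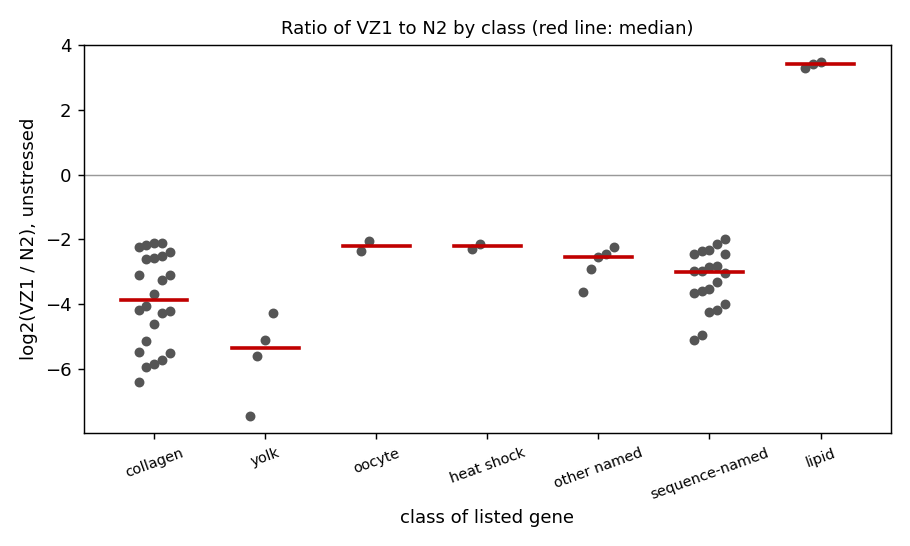
Log2 ratio of FPKM in unstressed VZ1 over unstressed N2 (vertical axis) for the 60 listed genes of 7 classes that have a value above 0 in both libraries, 1 point a gene, with the median of each class as a red line. The yolk genes have the lowest median, -5.35, the collagens spread from -6.40 to -2.12, and the 3 lipid genes alone lie above 0.

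Collagen genes were the largest group of the listed genes, and all 24 stood lower in VZ1. Their levels ran from 17.5 to 1735 FPKM in N2, with a median of 298 FPKM, and from 0.71 to 367 FPKM in VZ1, with a median of 18.5 FPKM. The ranges overlap, but each gene was at least 4.34-fold lower in VZ1, and the median log2 ratio was -3.88 against -3.11 over all lower genes. Their FPKM summed to 9396 in N2 and 1153 in VZ1. In whole-animal RNA, a smaller share of epidermal RNA and less collagen RNA within the epidermis cannot be told apart.

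The collagen furthest below its N2 level was 84.4-fold lower in VZ1. This gene, col-137 (chromosome IV, 16601475 to 16604511), was at 59.9 FPKM in N2 against 0.71 FPKM in VZ1, a log2 ratio of -6.40. Its rank rests on a VZ1 value below 1 FPKM, since with a pseudocount of 1 its log2 ratio was -5.15, behind that of col-81 at -5.63 and of 4 other collagens. Its locus of 3037 bp is wider than the 1297 bp annotated for the gene. Then came col-81 (chromosome II, 11012416 to 11013683), with 258 FPKM in N2 against 4.22 FPKM in VZ1 and a log2 ratio of -5.93. Both genes stood within a few FPKM of 0 in VZ1. For col-20 (chromosome II, 4869763 to 4870758) the levels were 217 FPKM in N2 against 3.75 FPKM in VZ1, and for col-140 (chromosome V, 5835876 to 5836794) they were 308 FPKM in N2 against 5.79 FPKM in VZ1. The log2 ratios of this pair were -5.85 and -5.74. Of the 24 collagens 12 had a log2 ratio below -4, and their levels were 17.5 to 659.96 FPKM in N2 and 0.71 to 30.4 FPKM in VZ1.

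The other 8 members of this steeper set lie on 5 chromosomes. The gene col-178 (chromosome X, 11199402 to 11200303) was at 192 FPKM in N2 against 4.18 FPKM in VZ1, and its direct neighbour col-179 (chromosome X, 11201465 to 11202369) was at 17.5 FPKM in N2 against 0.91 FPKM in VZ1. On the same chromosome, col-181 (chromosome X, 12104852 to 12105908) stood at 446 FPKM in N2 against 18.1 FPKM in VZ1 and col-184 (chromosome X, 13469377 to 13470299) at 241 FPKM in N2 against 13.4 FPKM in VZ1. All 4 were thus lower in VZ1 although their N2 levels differed widely. The gene col-139 (chromosome V, 4652895 to 4653944) was at 287 FPKM in N2 against 6.45 FPKM in VZ1, close to the levels of col-140 in both strains. The single-exon gene col-88 (chromosome III, 41061 to 41970) was at 659.96 FPKM in N2 against 18.8 FPKM in VZ1. The gene col-60 (chromosome I, 7105317 to 7106724) was at 509 FPKM in N2 against 30.4 FPKM in VZ1 and had the log2 ratio nearest to 0 in this set, -4.06. The gene col-122 was at 476 FPKM in N2 against 25.5 FPKM in VZ1, given at a locus of 5736 bp although RefSeq annotates 1063 bp for the gene, so its value may hold reads of neighbours.

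The 12 collagens with a log2 ratio of -4 or above stood at 2.97 to 367 FPKM in VZ1. The most abundant collagen of the table in both strains was col-77 (chromosome II, 8358232 to 8359277), with 1735 FPKM in N2 against 367 FPKM in VZ1, or 4.73-fold lower. Next in N2 came col-133 (chromosome IV, 14098335 to 14099320) with 850.2 FPKM in N2 against 142.2 FPKM in VZ1 and col-161 (chromosome V, 13317056 to 13317979) with 823 FPKM in N2 against 135 FPKM in VZ1. These 3 abundant genes remained above 100 FPKM in VZ1, as did col-145 (chromosome V, 9162024 to 9162963), which was at 507 FPKM in N2 against 117 FPKM in VZ1 and had the log2 ratio nearest to 0 of all listed collagens, -2.12. Of intermediate level were col-162 (chromosome V, 13441947 to 13443352) with 555 FPKM in N2 against 64.1 FPKM in VZ1 and col-157 (chromosome V, 11484030 to 11484975) with 369 FPKM in N2 against 64.5 FPKM in VZ1. The gene col-12 (chromosome V, 10423979 to 10424982) was at 154 FPKM in N2 against 34.5 FPKM in VZ1 and col-58 (chromosome I, 6311279 to 6312340) at 66.00 FPKM in N2 against 15.2 FPKM in VZ1. Their log2 ratios, -2.16 and -2.12, are close to that of col-145. The lowest N2 levels here were those of col-3 (chromosome IV, 8824795 to 8825954), with 25.5 FPKM in N2 against 2.97 FPKM in VZ1, and col-150 (chromosome V, 10293604 to 10294577), with 34.4 FPKM in N2 against 3.60 FPKM in VZ1. Loci of 2 genes are wider than the annotated gene. The value of col-129, 357 FPKM in N2 against 27.5 FPKM in VZ1, belongs to a locus shared with dlc-2, a gene of the dynein light chain family, and that of col-91, 247 FPKM in N2 against 47.6 FPKM in VZ1, to a locus of 7466 bp for a gene of 1310 bp.

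**Figure D2:**
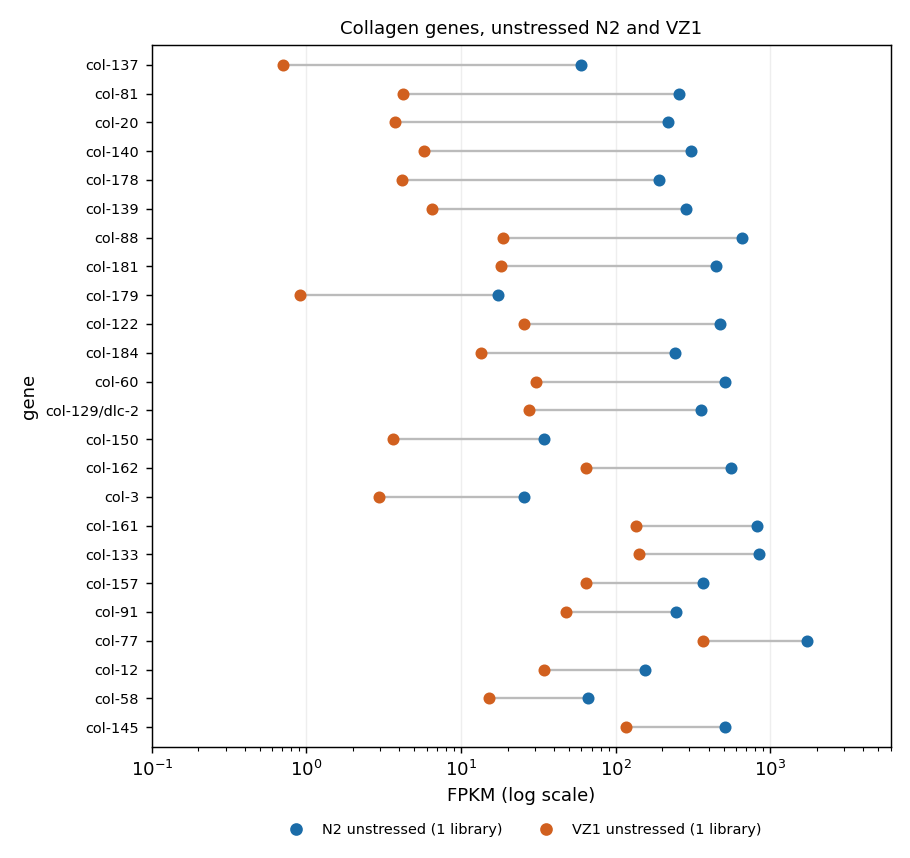
FPKM on a log axis (horizontal) of the 24 listed collagen genes in the unstressed N2 library (blue) and the unstressed VZ1 library (orange), ordered by ratio with the lowest on top. Every orange point lies to the left of its blue point, from 0.71 against 59.9 FPKM for col-137 to 117 against 507 FPKM for col-145.

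The listing covered part of the collagen family. Of 156 annotated numbered collagen genes 24 were listed, or 15.4%, beside 0.437% of all genes tested. How many annotated members of this or any other list were tested is unknown, so such shares have unlike bases. Of 20 annotated collagens named for body shape (dpy, rol, sqt, bli, lon and ram genes, in which mutations change the worm's length, girth or cuticle) 0 were listed. Of 35 cuticlin and related cuticle genes 0 were listed either, and neither were the collagen genes col-19 and col-10. No level is given for any of these, and a gene with few reads can go uncalled at a ratio that would be called in an abundant one. For lists of 20 and 35 genes, 0 members is near the 0.437% of all genes tested. These zeros are thus no result about the body-shape collagens or cuticlins. The listed collagens had coding sequences of 834 to 1053 bases with a median of 897, and the other 132 numbered collagens a median of 915 bases in Ensembl release 115. The median was 2 coding exons in both sets.

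Of 150 annotated genes of molting and the epidermis other than collagens (nas, mlt, ptr, wrt, grd, grl and others) 1 was listed. This is 0.67% of those annotated, near the 0.437% of all genes tested. The listed gene was nas-27 (chromosome II, 1176077 to 1179144), of the astacin metalloprotease family, at 21.2 FPKM in N2 against 1.72 FPKM in VZ1. Of 10 epidermis marker genes, dpy-7, elt-3 and lin-26 among them, and of 22 genes of epidermal antimicrobial peptides 0 were listed. For lists of these sizes that is near the 0.437% of all genes tested.

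Yolk genes stood furthest below N2 of the classes with more than 1 gene. The table lists 4 of the 6 vitellogenin genes, or 66.7%, beside 0.437% of all genes tested. All 4 were lower in VZ1, with a median log2 ratio of -5.35, and their FPKM summed to 572 in N2 and 19.04 in VZ1. The row of vit-4 may hold reads of vit-3, as given below. The log2 ratio furthest from 0 in the table, -7.45, was that of vit-5 (chromosome X, 3403468 to 3408543), which stood at 28.97 FPKM in N2 against 0.166 FPKM in VZ1, or 174-fold lower. This size rests on a VZ1 value near 0, and with a pseudocount of 1 the log2 ratio was -4.68, behind vit-4 at -5.14, vit-6 at -4.92 and several collagens. The gene vit-6 (chromosome IV, 8261153 to 8266348), whose product is cleaved into smaller yolk proteins, stood at 232 FPKM in N2 against 6.69 FPKM in VZ1. The vit-2 gene (chromosome X, 5101011 to 5106047) kept the most RNA of the 4, with 182 FPKM in N2 against 9.51 FPKM in VZ1 and a log2 ratio of -4.26. In N2 the 4 genes lay between 28.97 and 232 FPKM, and in VZ1 none reached 10 FPKM.

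The value of vit-4, 129 FPKM in N2 against 2.67 FPKM in VZ1, belongs to a locus of 13024 bp (chromosome X, 3558876 to 3571899), whereas RefSeq annotates 5197 bp for vit-4, with vit-3 as the next gene. The excess of 7827 bp is longer than the 5195 bp annotated for vit-3, so the value may hold reads of both genes. In the authors' table of stressed and unstressed N2 the vit-4 locus ends nearer to the gene, and unstressed N2 is given there at 98.9 FPKM. Of the 2 vitellogenin genes not listed, vit-1 was at 29.1 FPKM in unstressed N2 in that stress table, and vit-3 is listed in no table. The genes vit-3, vit-4 and vit-5 are near-identical in sequence, so the division of reads among them is uncertain. The intestine markers, chosen with earlier results of these data known, also held the vitellogenin genes, of which 4 were listed. The 7 other annotated intestine markers, such as ges-1, elt-2 and act-5, were not listed. For so few genes that is near the 0.437% of all genes tested. The yolk receptor gene rme-2 was not listed either.

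Among 56 annotated oocyte and eggshell genes 2 were listed under their table names, or 3.57%, beside 0.437% of all genes tested. Both were lower in VZ1. The gene puf-5 (chromosome II, 8575391 to 8577659), whose product represses translation of maternal mRNA in growing oocytes, was at 35.9 FPKM in N2 against 7.002 FPKM in VZ1. The gene cpg-2 (chromosome III, 7102016 to 7104034), which encodes a chondroitin proteoglycan of the eggshell, was at 126 FPKM in N2 against 30.2 FPKM in VZ1. Their log2 ratios, -2.36 and -2.06, are closer to 0 than the median of -3.11 over all lower genes. A further member appears under a sequence name, T10E9.3, which RefSeq now calls cpg-22. It was at 118 FPKM in N2 against 11.7 FPKM in VZ1, at a locus of 7049 bp for a gene of 5110 bp. Of 81 annotated sperm genes 0 were listed, which is near the 0.437% of all genes tested.

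Lipid genes supplied all 3 genes that stood higher in VZ1. The lipase-related gene lips-6 (chromosome IV, 12014182 to 12015952) was at 7.34 FPKM in N2 against 81.1 FPKM in VZ1, a log2 ratio of 3.47. The related gene lips-11 (chromosome II, 1108846 to 1110998) was at 2.10 FPKM in N2 against 20.7 FPKM in VZ1. The gene lbp-8 (chromosome V, 13890764 to 13891242) encodes a lysosomal fatty acid-binding protein that carries lipid signals to the nucleus, and it was at 4.56 FPKM in N2 against 48.8 FPKM in VZ1. The 3 genes differ in level but their ratios lie close together, from 9.86-fold to 11.1-fold. All were below 10 FPKM in N2 and between 20.7 and 81.1 FPKM in VZ1. The authors' deposited table gives lips-6 its smallest q, 0.0141, and the other 2 genes a q of 0.0349. They are 3 of 127 annotated genes of the lipid list, or 2.36%, beside 0.437% of all genes tested. The list also holds the fat desaturases, acyl-CoA synthetases, acyl-CoA dehydrogenases and other lipases, of which 0 were listed.

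Of 16 annotated small heat shock protein genes 2 were listed, or 12.5%, beside 0.437% of all genes tested. Both were lower in VZ1. The gene sip-1 (chromosome III, 10506056 to 10506710), whose chaperone is known from oocytes and embryos, was at 185 FPKM in N2 against 37.6 FPKM in VZ1. The gene hsp-43 (chromosome X, 6230856 to 6235913) was at 122.2 FPKM in N2 against 27.9 FPKM in VZ1, at a locus that the table also gives to C14F11.4. None of the arsenite-responsive hsp-16 genes was among the listed ones.

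The 5 other named genes had a median log2 ratio of -2.54. Besides nas-27 they were ttr-14 (chromosome X, 10787474 to 10789478), a gene of the transthyretin-related family of secreted proteins, with 233 FPKM in N2 against 30.7 FPKM in VZ1. Also listed was pqn-63 (chromosome V, 9616028 to 9617512), with 40.6 FPKM in N2 against 7.01 FPKM in VZ1. For pqn-54 (chromosome V, 1465014 to 1466275) the levels were 60.3 FPKM in N2 against 12.8 FPKM in VZ1. Both belong to 69 annotated genes of proteins with glutamine- and asparagine-rich prion-like domains. The 2 are 2.90% of that list, beside 0.437% of all genes tested. The gene sdz-28, named for SKN-1-dependent transcripts of the early embryo, was at 49.1 FPKM in N2 against 9.01 FPKM in VZ1, at a locus of 7603 bp for a gene of 1406 bp. An unnamed locus (chromosome V, 9221582 to 9225239) was at 95.3 FPKM in N2 against 15.05 FPKM in VZ1.

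**Figure D3:**
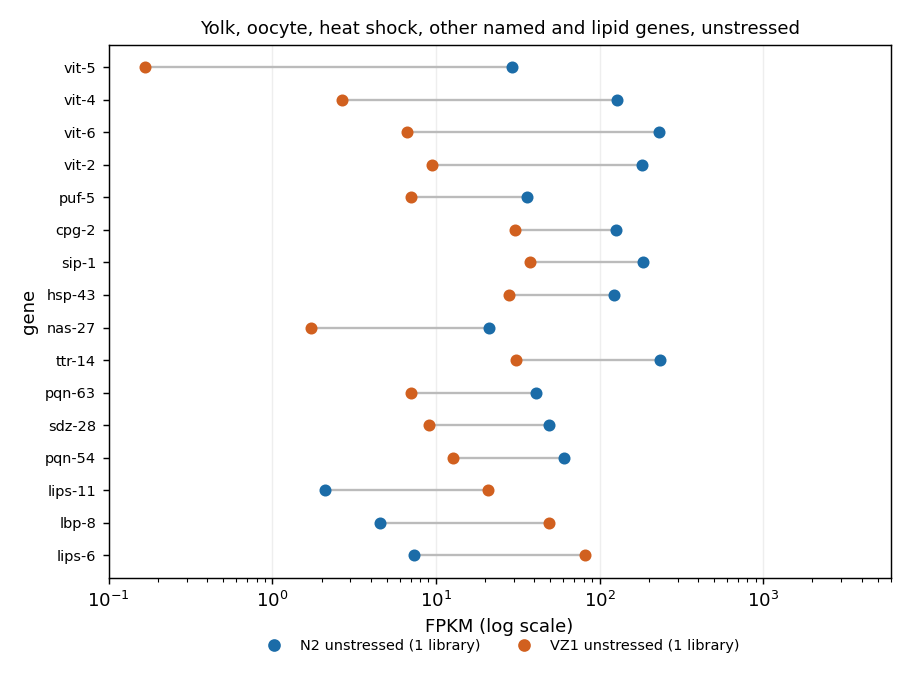
FPKM on a log axis (horizontal) of the 4 yolk, 2 oocyte and eggshell, 2 small heat shock, 5 other named and 3 lipid genes in the unstressed N2 library (blue) and the unstressed VZ1 library (orange). The yolk genes on top lie at 9.51 FPKM or less in VZ1, and the order of the colours is turned for lips-11, lbp-8 and lips-6.

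Genes known in the table only by a sequence name numbered 22, all lower in VZ1, with a median log2 ratio of -3.004 over the 20 with a value above 0 in VZ1. They include the highest N2 levels among the 63 listed genes. C02E7.7 (chromosome V, 4918210 to 4918542) was at 2916 FPKM in N2 against 239.6 FPKM in VZ1, and its coding sequence of 198 bases is the shortest of the 22. R12E2.14 (chromosome I, 4150000 to 4150563) was at 2035 FPKM in N2 against 464 FPKM in VZ1, Y47D7A.15 (chromosome V, 4431661 to 4433031) at 1765 FPKM in N2 against 153 FPKM in VZ1, and R12E2.7 (chromosome I, 4154068 to 4154405) at 1199 FPKM in N2 against 235 FPKM in VZ1. These 4 were above 1000 FPKM in N2, which of the collagens only col-77 reached, and all remained above 100 FPKM in VZ1. R12E2.14 and R12E2.7, with coding sequences of 222 and 246 bases, lie 3504 bp apart on opposite strands, with 1 annotated protein-coding gene between them.

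The 5 sequence-named genes with the lowest log2 ratios were as follows. F54F7.3 (chromosome X, 11849382 to 11850047) was at 74.4 FPKM in N2 against 2.17 FPKM in VZ1, a log2 ratio of -5.10. D1086.6 (chromosome V, 14079404 to 14081700) was at 12.04 FPKM in N2 against 0.391 FPKM in VZ1, and D1086.11 (chromosome V, 14071604 to 14076695) at 73.8 FPKM in N2 against 3.88 FPKM in VZ1. R03G8.6 (chromosome X, 13094557 to 13100340) was at 13.8 FPKM in N2 against 0.756 FPKM in VZ1 and Y45F10C.4 (chromosome IV, 13663393 to 13664132) at 107 FPKM in N2 against 6.72 FPKM in VZ1. All 5 were below 10 FPKM in VZ1, and D1086.11 is given at a locus of 5092 bp for a gene of 2104 bp. With a pseudocount of 1 the log2 ratios of D1086.6 and R03G8.6 were -3.23 and -3.08, and C02E7.7 (-3.60) and F15E11.15 (-3.53) took their places among these 5. F12E12.1 and F40G12.11 were listed at 0 in VZ1 and at 2.33 and 0.862 FPKM in N2, so no ratio is given.

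RefSeq gives 7 of the 22 a gene name today. Beside cpg-22 these include F49E12.1, now skpo-1, which encodes a peroxidase of the epidermis, at 20.6 FPKM in N2 against 2.90 FPKM in VZ1. C08F11.11, now ule-4 and named for proteins in the lumen of the uterus, was at 705 FPKM in N2 against 97.2 FPKM in VZ1. F15E11.15, now pud-3 and named for proteins that accumulate in daf-2 insulin receptor mutants, was at 135 FPKM in N2 against 10.8 FPKM in VZ1, at a locus of 2575 bp for a gene of 519 bp whose neighbours pud-2.2 and pud-4 belong to the same family. F48E3.4, now try-14 of the trypsin-like proteases, was at 24.5 FPKM in N2 against 3.13 FPKM in VZ1. T06E4.8, now idpc-5, was at 113 FPKM in N2 against 20.8 FPKM in VZ1, and C05E7.2, now gmap-3, at 109 FPKM in N2 against 21.4 FPKM in VZ1. None of these 7 lay above 100 FPKM in VZ1.

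Of the remaining sequence-named genes, C30H6.5 was at 57.2 FPKM in N2 against 7.30 FPKM in VZ1 and C39D10.7 at 36.5 FPKM in N2 against 6.69 FPKM in VZ1. The locus of F55B11.2 and F55B11.7 was at 56.4 FPKM in N2 against 6.86 FPKM in VZ1, 1 value for both genes. D1086.10 (chromosome V, 14082786 to 14083464) was at 582 FPKM in N2 against 147 FPKM in VZ1, and its log2 ratio of -1.98 is the nearest to 0 in the table.

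**Figure D4:**
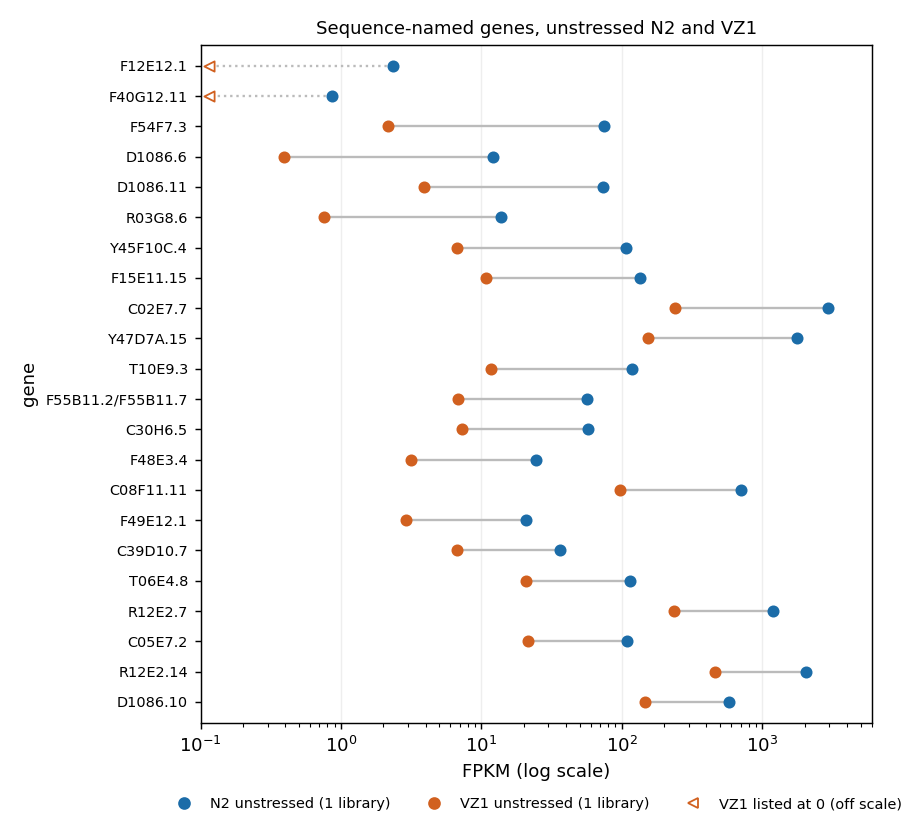
FPKM on a log axis (horizontal) of the 22 sequence-named genes in the unstressed N2 library (blue) and the unstressed VZ1 library (orange). Open triangles mark F12E12.1 and F40G12.11, listed at 0 in VZ1, and levels in N2 run from 0.862 FPKM for F40G12.11 to 2916 FPKM for C02E7.7.

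At the threshold of the table, the listed genes with log2 ratios nearest to 0 were D1086.10 (-1.98) and cpg-2 (-2.06). Of the 63 genes 51, 21 collagens among them, share the smallest q of the authors' deposited table, 0.0141, and the largest q, 0.0458, is that of D1086.6. The genes just outside the threshold are not in the table. The lists of glutathione S-transferases (44 annotated), thioredoxins, their reductases and peroxiredoxins (10), neuropeptides and insulins (148) and body muscle genes (17) had 0 members listed, and so had the marker lists of the pharynx (5), neurons (8) and coelomocytes (2). The SKN-1 targets gst-4 and gcs-1 were not listed in this comparison either. With 0.437% of all genes tested listed, 0 members is near that share for lists of these sizes. These absences are thus no result about the tissues or pathways.

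A separate pair of libraries shows some of the same genes in arsenite. Between stressed VZ1 and stressed N2 the authors listed 73 entries for 72 genes, or 0.508% of those tested, with 0.488% lower and 0.0209% higher in VZ1. Of the 63 genes 32 were listed there too (50.8%, or 44.4% of the 72). By class these were 16 of the 24 collagens, 13 of the 22 sequence-named genes, vit-6, lips-11 and ttr-14. Neither puf-5, cpg-2, sip-1, hsp-43, lips-6 nor lbp-8 was listed, and a gene missing from that table is not shown to be alike between the stressed strains.

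For the 16 collagens the median log2 ratio of VZ1 over N2 was -4.12 without and -4.14 with arsenite. The levels of col-140 in arsenite were 155 FPKM in N2 and 3.18 FPKM in VZ1, and those of col-88 were 248 and 3.95 FPKM. The abundant col-77 was at 1055 FPKM in stressed N2 and 146 FPKM in stressed VZ1. Each of these 3 was lower in VZ1 in both conditions. The level across tables was lower with arsenite than without for all 16 in N2, by a median log2 of -0.94, and for 15 of 16 in VZ1, by a median log2 of -1.09. These changes join separately scaled tables. Of these 16 genes the authors called them for col-3, col-20 and col-178 in N2 and for none in VZ1. All 16 were chosen for standing higher in the unstressed N2 library, so a fall from that library is favoured by the choice. In VZ1 the exception was col-3, which in arsenite was at 0.704 FPKM in the N2 library and 11.8 FPKM in the VZ1 library and so stood higher in VZ1.

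Over the 13 sequence-named genes the median log2 ratio was -3.32 without and -3.39 with arsenite. These genes too enter only because they were listed in both comparisons, which favours like medians. C02E7.7 was at 2260.4 FPKM in stressed N2 and 314 FPKM in stressed VZ1, C08F11.11 at 720.5 and 86.95 FPKM, and F54F7.3 at 64.9 and 4.09 FPKM. For Y47D7A.15 the stressed table has 2 entries, with log2 ratios of -3.73 and -3.74. The more abundant entry is used, and its locus differs from the one given without stress. Of the 13, 7 have the same locus in both tables. The lipase-related gene lips-11 was at 1.89 FPKM in stressed N2 and 17.1 FPKM in stressed VZ1, near its levels without stress in each strain.

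The yolk gene vit-6 was listed in arsenite with 52.3 FPKM in stressed N2 and 12.6 FPKM in stressed VZ1, a log2 ratio of -2.05 against -5.11 without stress. The difference between these ratios was not tested.

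**Figure D5:**
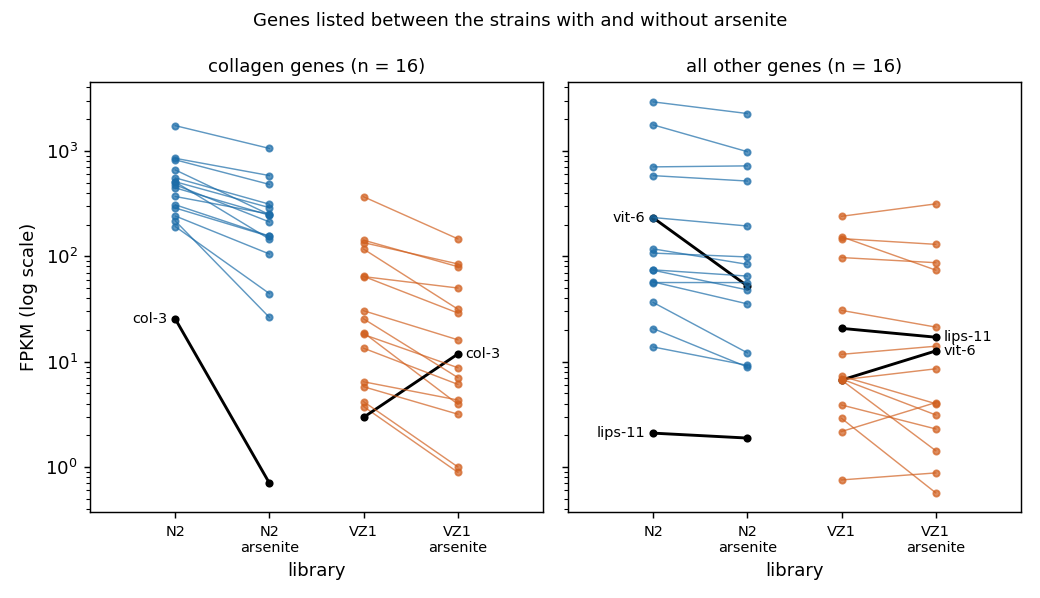
FPKM on a log axis (vertical) in the 4 libraries of the 32 genes listed between the strains both without and with arsenite, with collagens on the left and other genes on the right. Lines join the unstressed and stressed library of a strain, across separately scaled tables. Most genes lie lower in VZ1 (orange) in both conditions, col-3 changes places, and lips-11 is higher in VZ1 in both.

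The stress tables share the unstressed N2 or VZ1 library with this comparison, and values from them are given side by side. In N2 the authors listed 1.05% of the genes tested and in VZ1 0.735%. Of the 63 genes 9 were listed for arsenite in N2, all lower with stress, namely the 4 vitellogenin genes, col-3, col-20, col-137, col-178 and F15E11.15. All 9 were chosen for standing higher in this same unstressed N2 library, so a fall from it is favoured by the choice. Of these vit-5 went from 29.6 to 0.873 FPKM in N2 and vit-2 from 186 to 28.8 FPKM. F15E11.15 went from 145 to 18.5 FPKM. Across tables, stressed N2 exceeded unstressed VZ1 in each of these 3. By contrast, col-3, at 0.7 FPKM in stressed N2, stood below its unstressed VZ1 level of 2.97 FPKM. For vit-4, stressed N2 is given at 0.603 FPKM, but the unstressed VZ1 level of 2.67 FPKM belongs to a wider locus. The vit-4 levels are thus not compared. For arsenite in VZ1 only lips-6 was listed, which went from 81.01 to 2.63 FPKM. It was likewise chosen for standing high in unstressed VZ1. Its stressed level lies below its unstressed N2 level of 7.34 FPKM, which belongs to a locus with another start.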

How the data were processed

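The submitters' processing notes name TopHat, Bowtie2 and Cufflinks and the genome build ce10, with no versions. Strandedness and annotation were not given in these sources. The deposited tables have the layout of Cuffdiff, per the file headers, and give FPKM for each library of a pair, scaled by the authors within that pair, with a p-value and a q-value. Every row is marked significant, so only called genes have values.

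From these, log2 of VZ1 over N2 was computed with no pseudocount. It differed from the deposited fold by at most 1.02e-05 on the 61 rows where that is a number. The number of genes tested was recovered as q times rank divided by p, a step tested on simulated data. No test was made, with 1 library per group, and depth is unknown. Of the 63 rows 62 matched RefSeq (WBcel235), used for names, lengths and gene order, with coding lengths from Ensembl release 115. Coordinates are in ce10. All 63 rows may be named. Values were given in full for the named classes and the 5 sequence-named genes furthest below N2, and other members were named after their values were seen. The genes, lists and rule were chosen with earlier results of these data known. Merged loci (rows with several names), low values, pseudocounts, a stricter q and current names were tried as alternatives. Python 3.11.15 was used, with numpy, pandas and matplotlib.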

Additional observations from a re-analysis of the deposited data

Results flagged for a closer look

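The collagen gene col-3 had strain ratios in opposite directions, with a log2 ratio of VZ1 over N2 of -3.10 without and 4.07 with arsenite, a difference of 7.17. Its arsenite change across tables was likewise opposite in the strains, with a log2 of -5.18 in N2 and 1.99 in VZ1, which is the same difference of 7.17. Both the 4.07 and the -5.18 rest on a stressed N2 value of 0.704 FPKM, which is below 1 FPKM, so their sizes are uncertain. Each value is 1 library and the difference was not tested.

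For 7 other genes the change with arsenite, taken across separately scaled tables, had opposite signs in the strains, and none of these differences was tested. The yolk gene vit-6 had a log2 of -2.15 in N2 and 0.92 in VZ1, a difference of 3.06. F54F7.3 had -0.20 and 0.91, a difference of 1.11. The difference of VZ1 from N2 was 0.80 for R03G8.6, 0.76 for C02E7.7, 0.74 for T10E9.3, 0.47 for Y45F10C.4 and -0.19 for C08F11.11. The locus of T10E9.3 ends at different positions in the tables. For C08F11.11 the log2 changes were only 0.03 in N2 and -0.16 in VZ1. Joining tables moved the N2 change of col-20 from -3.09 to -3.04, so the sign of 0.03 is uncertain. All 7 genes, like col-3, were chosen as lower in unstressed VZ1, which favours a fall in N2 and a rise in VZ1.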

How the results depend on the processing

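Of 33 recomputed counts 31 stayed within 1.5 times the reported ones when merged loci or low values were left out, a stricter q was used or current names were taken. Merged loci are here only the 3 rows with several names. Other loci wider than their gene, such as those of vit-4, col-122, col-91 and col-137, were not left out as merged. With the smallest of the authors' q alone, 1 gene higher in VZ1 was left, lips-6, and 1 lipid gene. The median log2 over all lower genes was -2.88 with a pseudocount of 1, -3.16 with 0.1, -3.55 as a mean and -3.56 at the smallest q. For collagens it was -3.46 with a pseudocount of 1, -3.89 as a mean, -4.06 without merged loci and -4.17 at the smallest q. For sequence-named genes it was -2.83 and -3.14 with pseudocounts of 1 and 0.1, -3.25 as a mean, -2.97 without merged loci and -3.42 at the smallest q. Of 61 genes with a fold all 61 kept their direction with a pseudocount of 1, and 54 moved by less than 0.5. Requiring the same locus in both strain tables, an alternative chosen after seeing the data, left 26 of 32 shared genes and 7 of 13 sequence-named ones. No paired analysis was possible because each group has 1 library, and no library could be left out. Unknown depth limits what can be said of genes near 0 FPKM.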

Other observations

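The listed genes were spread over all 6 chromosomes, with 20 on V, 14 on X, 11 on IV, 9 on II, 5 on I and 4 on III. Chromosome V holds 24.996% of annotated protein-coding genes and 31.7% of the listed ones, and X holds 13.7% and 22.2%. Of the numbered collagens annotated on V, 8 of 31 were listed, and on IV 5 of 41. These shares were not tested.

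Some listed genes lie side by side. D1086.11, D1086.6 and D1086.10 on chromosome V are direct neighbours on 1 strand, with gaps of 2708 and 1085 bp, and had log2 ratios of -4.25, -4.94 and -1.98. col-178 and col-179 on X are direct neighbours on 1 strand, 1161 bp apart, with ratios of -5.52 and -4.26. C08F11.11 and Y45F10C.4 on IV lie 15988 bp apart with 6 protein-coding genes between them, and pqn-63 and T06E4.8 on V lie 4567 bp apart with 2 between them.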
